A study of Mus musculus with 179 samples.

Results

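Otx2 is the gene of a homeodomain transcription factor of the bicoid class, and it is described here in 134 of the 163 RNA libraries of a mouse study of early life stress (ELS). It was matched by symbol in a table with values for 37810 genes and by its Ensembl identifier, ENSMUSG00000021848, in a second table of 32421 genes. The libraries came from adult C57Bl6/j mice, 24 hours after behavioural testing by the labels of the male tissue, and each held poly-A RNA of a tissue punch. Males had ELS followed by defeat, ELS alone, defeat after standard rearing, or standard rearing with no adult stress. Females had the same 4 combinations with STVS, a sub-threshold variable stress, in the place of defeat. ELS fell between postnatal days 10 and 20 in the labels of the second table, and the labels of male ventral tegmental area (VTA) used here give no window. Male VTA libraries (4 of ELS alone, 4 of standard control, 6 in each defeat group) each pooled punches of 3 mice. Libraries of female VTA, female nucleus accumbens (NAc), female prefrontal cortex (PFC), male PFC and male hippocampus (HIP) each came from 1 mouse, with 5 or 6 per group. Otx2 and Ttr had no row in the table of the 29 male NAc libraries, so male NAc is not analysed here.

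In the embryo Otx2 is needed for the forebrain and midbrain to form, and its boundary with Gbx2 sets the position of the midbrain-hindbrain organiser. In the adult midbrain it stays on in a subset of VTA dopamine neurons, where it is known to limit the amount of the dopamine transporter, the product of Slc6a3. It is also a strong gene of the choroid plexus epithelium, whose most abundant message is Ttr, the gene of the thyroid hormone carrier transthyretin. Choroid plexus lies in the ventricles, close to the hippocampus and the accumbens. The study follows Otx2 as a factor linking early stress to the VTA, so the questions put to the data are how its level ran across regions, how much of it came with Ttr, and whether it differed with stress.

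Otx2 lies on the minus strand of chromosome 14 at chr14:48656781-48667644 (GRCm38.p6, RefSeq). The long noncoding gene Otx2os1 begins 1643 bases beyond it at chr14:48669288-48793348, does not overlap it, and was not matched to a row of the files. RefSeq gives 4 start sites of Otx2, with windows of 250 bases before to 50 bases after each. OTX2 itself binds the bicoid-type core TAATCC, read GGATTA on the other strand, so the windows were searched for both strands of that core. The only window of the 4 with a match, at chr14:48665060-48665359 and printed 5′ to 3′ on the gene's strand, is shown with the core in capitals.
Otx2 window: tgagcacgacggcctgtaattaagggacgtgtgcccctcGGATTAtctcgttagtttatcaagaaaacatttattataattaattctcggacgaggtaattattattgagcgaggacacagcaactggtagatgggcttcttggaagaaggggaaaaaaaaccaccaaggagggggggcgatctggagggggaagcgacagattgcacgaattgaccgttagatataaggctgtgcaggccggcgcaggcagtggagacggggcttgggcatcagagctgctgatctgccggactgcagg
The core began 211 bases before that start. Of all 32851 RefSeq windows of this length, 7.06% held it. That share is for a single window, and Otx2 was searched over 4, of which 1 held it. Counted by gene, 8.14% of 27025 genes held it. The match describes these letters only, and the files used here hold no measurement of binding.

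Some libraries of the second table stood apart before any comparison. The 20 male VTA libraries were not screened for Ttr or for sex. Above 10000 normalised reads of Ttr were 6 hippocampal libraries and 1 of female NAc. In 7 others Xist or Ddx3y, transcripts of the inactive X and the Y chromosome, lay outside the limits set for the labelled sex. These were standard STVS 3 of female VTA, NAc and PFC, with Xist of 6152, 101 and 166 normalised reads, female VTA standard control 3, with Ddx3y of 145, and male PFC standard controls 1 and 4 and standard defeat 4, with Xist of 560, 243 and 1284. The stress comparisons were repeated without all of them.

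Otx2 was a low but steady gene of the VTA. In male VTA it averaged 2.16 ± 0.279 RPKM (SD, n = 20), with a range of 1.48 to 2.70, which was higher than 70.6% of the genes with values. In female VTA it averaged 263 ± 29.1 normalised reads (SD, n = 22), with a range of 205 to 315, from 167 to 411 whole reads per library. Normalised reads are whole reads divided by a single factor per library, and the female libraries of VTA held 19185904 to 41191492 reads. The library-to-library spread of Otx2 was 12.9% of its mean in male VTA and 11.1% in female VTA, where read counting alone gives 5.89%. In bulk tissue, fewer cells of a type and less RNA per cell cannot be told apart.

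The punches carried the midbrain identity that their label gives. Slc6a3 averaged 282 ± 92.0 RPKM and Th, which makes the rate-limiting enzyme of dopamine synthesis, 224 ± 73.2 RPKM in male VTA (SD, n = 20). On the same per-length scale the 10 listed midbrain dopamine factors averaged 2.32 RPKM (Neurod6) to 13.6 RPKM (Nr4a2), all above Otx2. Foxa2 averaged 4.89 ± 1.30 RPKM, Lmx1a 3.13 ± 1.17 RPKM and Pitx3 3.49 ± 1.10 RPKM (SD, n = 20). Otx1, the close relative of Otx2, averaged 1.09 ± 0.175 RPKM (SD, n = 20). The other family member, the photoreceptor gene Crx, averaged 0.00619 RPKM.

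Across the 5 region and sex sets of the second table the median of Otx2 ran in the order female VTA (262 normalised reads), female NAc (40.9), male HIP (4.92), male PFC (0.949) and female PFC (0). Female VTA did not overlap female NAc, except for 1 NAc library, ELS STVS 1, at 231. The NAc libraries in turn lay above the 18 hippocampal libraries that were low in Ttr, while those 18 libraries and both sets of PFC overlapped. In the standard controls alone, female VTA had 210.5 to 310.3 normalised reads with a median of 259.6, against 14.6 to 39.5 with a median of 27.4 in female NAc (n = 6 each). Otx2 was higher in female VTA than in female NAc by 3.25 ± 1.24 on the log2(value + 1) scale (SE; limma, adjusted p = 0.0189). In the exact permutation test the p was 0.00216. At the same threshold 79.3% of the 14000 genes tested differed between these regions. Libraries of different regions in the second table share group codes and numbers in their titles. The labels used here do not state whether the same mice gave them. Standard STVS 3 had low Xist in female VTA, NAc and PFC alike, at 6152, 101 and 166 normalised reads. The other libraries of those sets had at least 11312, 27367 and 22994. Whether the same mouse gave libraries of different regions was not tested. The limma fit and the permutation test took libraries of different regions as independent. The SE of this fit takes in the hippocampal controls, whose Otx2 was split, and with the female controls alone, a fit chosen after the data were seen, it was 0.203 (adjusted p = 7.49e-12). The call was lost with log2(value + 0.1), at 3.30 (limma, adjusted p = 0.0564), and with Ttr as a covariate, at 1.49 (limma, adjusted p = 0.0560). The slope on Ttr was fitted over all standard controls, the hippocampal ones included, of which 3 of 6 were rich in Ttr. The value of 1.49 therefore does not measure the share of Ttr within VTA and NAc.

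PFC had almost no Otx2. All 6 female PFC standard controls were at 0, where 3 reads would have been 0.0909 to 0.124 RPM, reads per library scaled to the same total. Set against the highest of those per-library limits, Otx2 was at least 71.6-fold higher in female VTA controls (8.86 ± 1.35 RPM, SD, n = 6) and at least 7.56-fold higher in female NAc controls (0.936 ± 0.291). Both differences passed the test, for female VTA at adjusted p = 1.40e-06 with 76.9% of genes called, and for female NAc at adjusted p = 0.00127 with 68.4% of genes called (limma). The exact permutation p was 0.00216 for each. Over all 22 female PFC libraries there were 6 Otx2 reads among 618209705, in 5 libraries. In male PFC 9 of 24 libraries were at 0 and the 24 together held 52 reads, of which 26 came from 1 library.

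**Figure D1:**
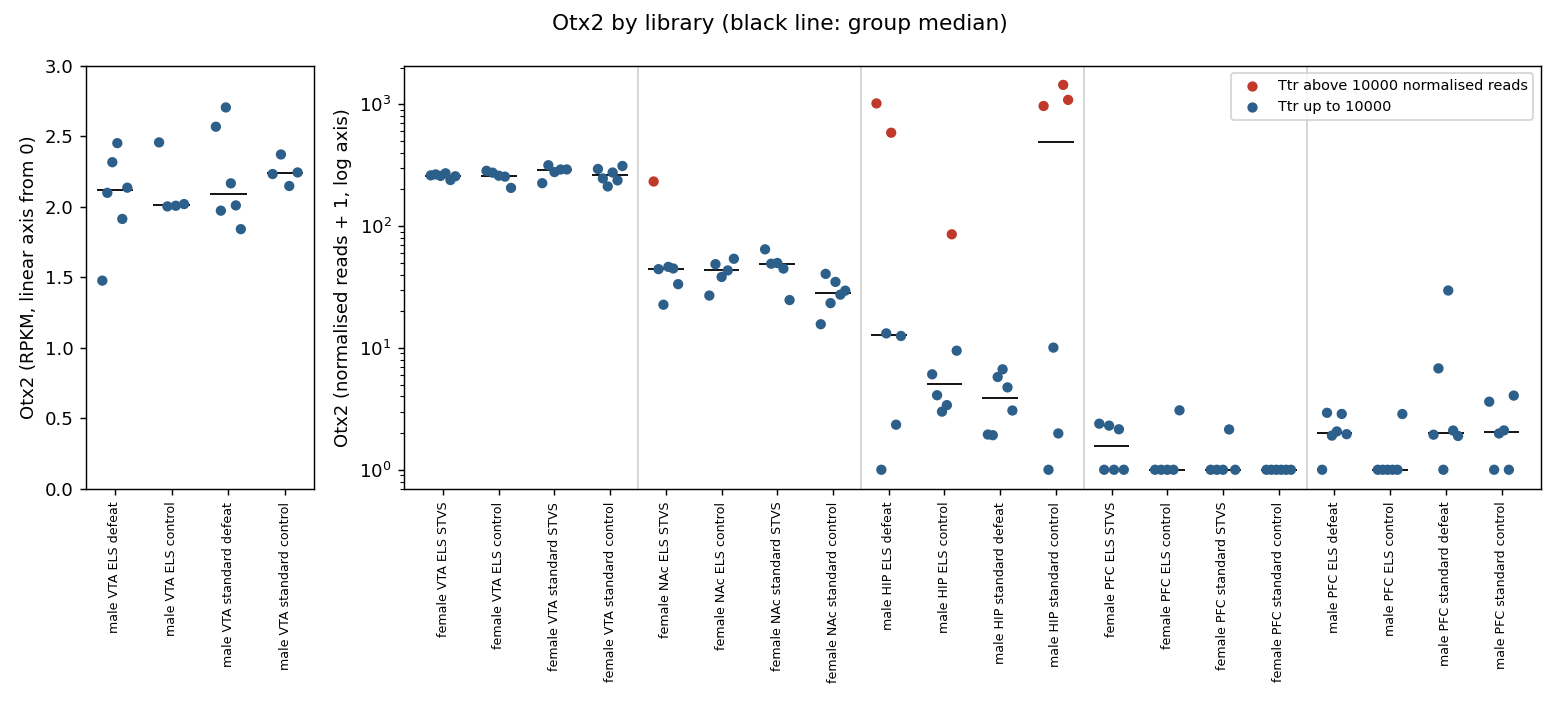
Otx2 in every library by group, as RPKM on a linear axis for male VTA at the left and as normalised reads + 1 on a log axis for the other sets at the right, with black lines at the group medians and red points for libraries with Ttr above 10000 normalised reads. Female VTA libraries lie between 205 and 315 in all 4 groups, while hippocampal libraries lie either at 12.2 and below or at 84.5 and above.

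The hippocampus held 2 kinds of libraries. In 18 libraries, with Ttr of at most 10000 normalised reads, Otx2 lay between 0 and 12.2 normalised reads with a median of 2.74. In the other 6 it lay between 84.5 and 1440, and these were the 6 libraries with Ttr above 10000. They were ELS defeat 2 (1014) and 5 (583), ELS control 4 (84.5), and standard controls 1 (966), 4 (1440) and 6 (1085). No standard defeat library was among them. Thus 2 of 6 ELS defeat, 1 of 6 ELS control, 0 of 6 standard defeat and 3 of 6 standard control libraries were rich in Ttr.

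In these 6 libraries Otx2 ran in proportion to Ttr, at 4.68 to 6.16 Otx2 reads per 1000 Ttr reads with a median of 5.35. Other choroid plexus genes kept a like ratio: Kl, which makes the hormone co-receptor Klotho, had 44.0 to 70.6 reads per 1000 Ttr reads, and Folr1, a folate carrier of that epithelium, 8.35 to 12.6. On the log2 scale Otx2 and Ttr correlated in the 6 libraries with Pearson's r = 0.996 (exact permutation p = 0.00278, adjusted p = 0.0194 over 7 relations). Spearman's rho was 0.943 (exact permutation p = 0.0167, adjusted p = 0.117). Without the 2 libraries farthest from the median Ttr, r was 0.915. Among the other 18 hippocampal libraries r was 0.278 (permutation p = 0.266, adjusted p = 0.620) and rho 0.351 (permutation p = 0.154, adjusted p = 0.359), and r was 0.0796 without the 2 farthest.

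Of the 13999 other hippocampal genes tested, the 5 that followed Otx2 most closely after the group means were taken out were Enpp2 (r = 0.968), F5 (0.964), 1110059M19Rik (0.962), Ttc12 (0.960) and Kl (0.958), over 24 libraries. Enpp2, which makes the lysophospholipase autotaxin, the coagulation factor gene F5 and Kl are members of the choroid plexus list. All 20 choroid plexus genes had a positive r, with a median of 0.930, and all 6 ependymal genes did so with a median of 0.800, beside a median of -0.02 over all genes. The 24 points share the split into 6 Ttr-rich libraries and 18 others.

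One female NAc library, ELS STVS 1, was like them. It had 231 Otx2 and 40770 Ttr normalised reads, which is 5.67 Otx2 reads per 1000 Ttr reads, with 57.3 of Kl and 9.39 of Folr1. At the median hippocampal ratio its Ttr would correspond to 218 Otx2 reads, or 94.3% of its Otx2, leaving 13.3. In the other 21 female NAc libraries Otx2 lay between 14.6 and 63.4 normalised reads (37.4 ± 12.3, SD, n = 21), and r with Ttr was -0.20 (permutation p = 0.393, adjusted p = 0.622) with rho = 0.0286 (permutation p = 0.905, adjusted p = 0.992). Without the 2 farthest libraries r was 0.0463.

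In VTA Ttr was low for the Otx2 present, when set against the ratio of the Ttr-rich hippocampal libraries. At the hippocampal ratio, the Ttr of the 22 female VTA libraries would correspond to 0.122% to 15.1% of their Otx2, with a median of 0.506%. The highest was standard control 3, with 8281 Ttr and 293 Otx2 normalised reads, of which 44.3 would go with Ttr, and without that library the highest share was 2.18%. Otx2 and Ttr correlated with r = 0.170 in female VTA (permutation p = 0.444, adjusted p = 0.622; rho = 0.159, permutation p = 0.479, adjusted p = 0.839) and r = 0.0213 in male VTA (permutation p = 0.927, adjusted p = 0.947; rho = -0.05, permutation p = 0.833, adjusted p = 0.992). Without the 2 farthest libraries r was 0.00190 in female VTA and 0.0507 in male VTA. In male VTA Ttr itself averaged 6.17 ± 4.71 RPKM and Folr1 0.0974 ± 0.0798 RPKM (SD, n = 20). The choroid plexus list ran opposite ways in the 2 sexes, with group means taken out. In female VTA 9 of 11 measured genes had a positive r with Otx2 (median 0.170, beside 0.00621 over all genes). In male VTA 3 of 10 did (median -0.29, beside -0.18). These medians were not tested. Whether VTA cells keep the ratio of choroid plexus was not tested.

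**Figure D2:**
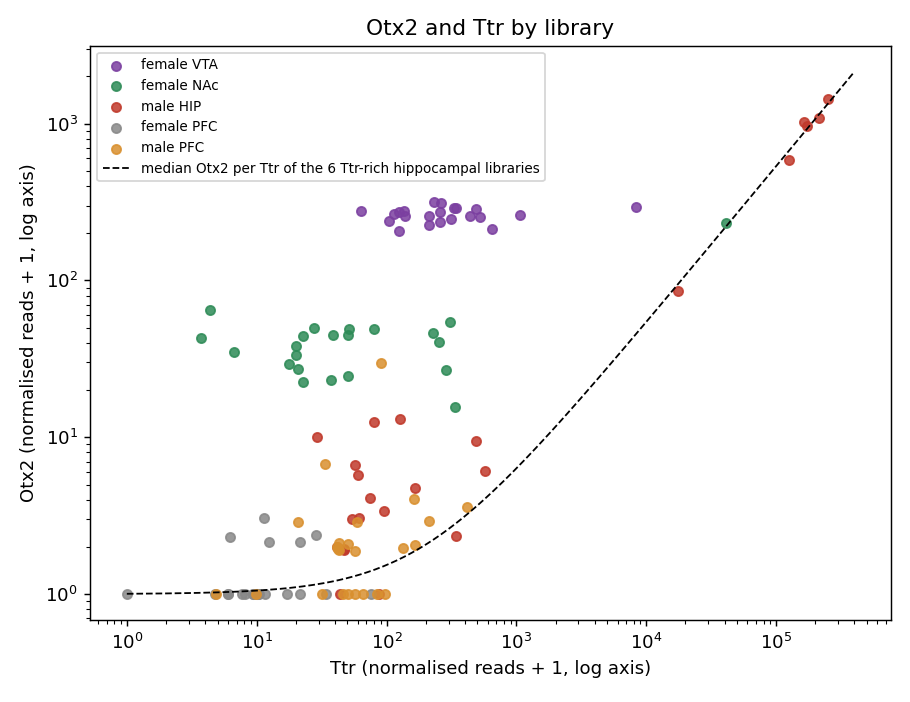
Otx2 against Ttr in the libraries of the second table, both as normalised reads + 1 on log axes and coloured by region and sex, with a dashed line at the median ratio of the 6 Ttr-rich hippocampal libraries. Those 6 libraries and NAc ELS STVS 1 lie along the line, and the female VTA libraries lie above it with Otx2 between 205 and 315 over the whole range of Ttr.

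A male PFC library, standard defeat 4, stood out the other way. It had 28.6 Otx2 normalised reads beside 0 to 5.79 in the other 5 standard defeat libraries, and its Ttr was 90.2. Its Slc6a3 was 3853 normalised reads and its Foxa2 52.8, while the other 23 male PFC libraries had Foxa2 of at most 1.02. It was 1 of the male PFC libraries with Xist above the limit, at 1284 normalised reads. It held 7.42 Otx2 reads per 1000 Slc6a3 reads, beside 5.28 to 38.3 with a median of 7.92 in female VTA.

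Within the VTA, Otx2 varied far less than the dopamine markers. Slc6a3 spanned 6.67-fold across female VTA libraries and Otx2 1.54-fold. Without standard control 3 the span of Slc6a3 was 3.92-fold and that of Otx2 was still 1.54-fold. In male VTA the spans were 3.43-fold and 1.83-fold. Otx2 and Slc6a3 correlated with r = 0.438 in male VTA (permutation p = 0.0520, adjusted p = 0.182; rho = 0.424, permutation p = 0.0644, adjusted p = 0.225), and with r = 0.520 without the 2 libraries farthest in Slc6a3. With group means taken out r was 0.479 (permutation p = 0.0311). In female VTA r was -0.02 (permutation p = 0.947, adjusted p = 0.947) and rho 0.00282 (permutation p = 0.992, adjusted p = 0.992), with r = -0.07 without the 2 farthest. No relation of Otx2 with Slc6a3 passed the adjustment, and the difference in r between the sexes was not tested.

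**Figure D3:**
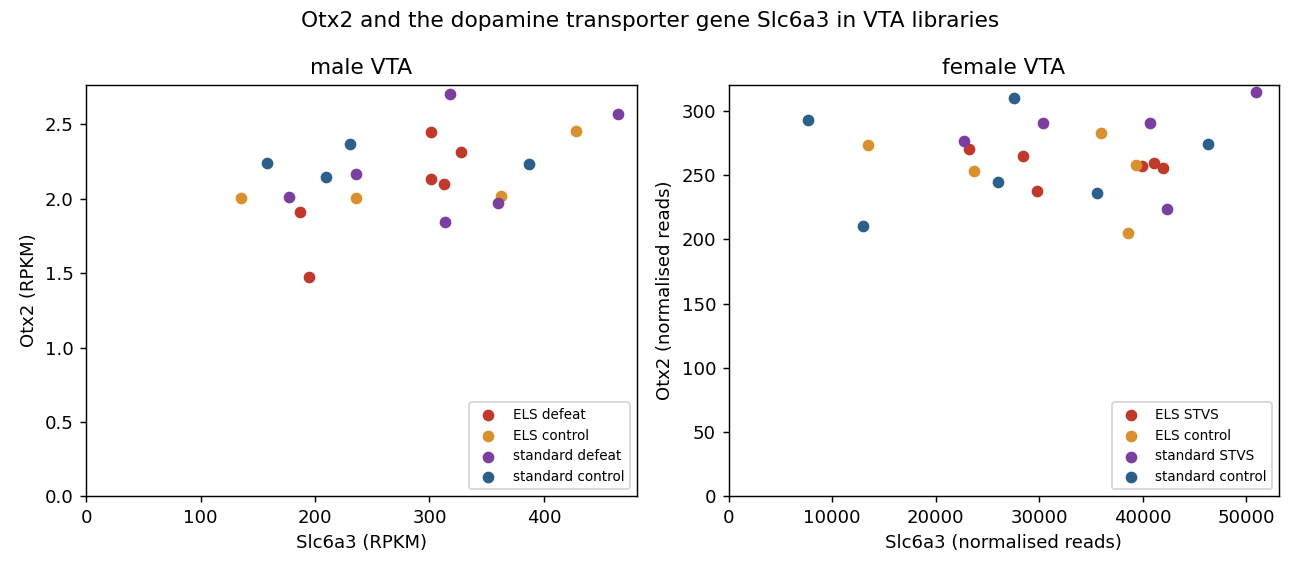
Otx2 against Slc6a3 in the VTA libraries, males in RPKM at the left and females in normalised reads at the right, on linear axes from 0 with a colour per group. In females Otx2 stays between 205 and 315 while Slc6a3 runs from 7649, or 12998 without standard control 3, to 50993.

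The dopamine genes are given as a list, without a test. With group means taken out, all 9 dopamine neuron genes had a positive r with Otx2 in male VTA, from 0.479 for Slc6a3 to 0.634, with a median of 0.548 beside -0.18 over all genes. In female VTA 1 of 9 was positive, the median was -0.04 and the median over all genes 0.00621. Of the 10 midbrain dopamine transcription factors, 9 were positive in male VTA with a median r of 0.469, and 7 in female VTA with a median of 0.0155. Foxa2, a factor that keeps dopamine neurons in their fate, had r = 0.763 in male VTA and -0.05 in female VTA. Neurod6, which marks a medial VTA dopamine subset, had r = 0.0184 in male VTA and 0.559 in female VTA. Genes of a punch share its dissection and depth, and male libraries pooled 3 mice where female libraries held 1.

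The genes most like Otx2 were read from each set by itself. In male VTA they were Bfsp2 (r = 0.817), Cdc42ep2 (0.805), Adipor1 (0.787), 5730494N06Rik (0.783) and Slc45a3 (0.778) over 20 libraries. In female VTA they included Lrp6 (r = 0.718), Per2 (0.712), ENSMUSG00000096910 (0.698) and Zfp146 (0.689) over 22 libraries. Of the 50 most alike genes in each, 0 were shared with 13116 genes measured in both, where unrelated lists of this size share 0.191 genes on average, so the overlap says little. In the 21 female NAc libraries of low Ttr, a set added after the data were seen, the 5 were Plp2 (r = 0.800), Lmnb1 (0.793), Aspm (0.768), Dlx1 (0.727) and Top2a (0.723). Aspm and Top2a act in dividing cells, Lmnb1 makes a nuclear lamin, and Dlx1 is a transcription factor of forebrain GABA neurons and their precursors. Aspm lay between 15.6 and 86.3 normalised reads there. Over the 5 region and sex medians, the most alike genes were Cln3, Rnd2, Gpam, Lta4h and BC030307, with r from 0.998 to 1.00 over 5 points.

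No difference of Otx2 with stress passed the test in the adult VTA of either sex. In male VTA it was 1.48 to 2.45 RPKM with a median of 2.12 after ELS and defeat (n = 6). After ELS alone the 4 libraries had 2.46, 2.003, 2.01 and 2.02 RPKM. After defeat alone it was 1.84 to 2.70 RPKM with a median of 2.09 (n = 6), and the 4 standard controls had 2.23, 2.37, 2.15 and 2.24 RPKM. Of the 4 ELS libraries 3 lay below every standard control and ELS control 1 lay above all of them. Every other pair of groups overlapped.

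The log2 differences in male VTA were all below 0 and all small. After ELS alone Otx2 differed from standard controls by -0.06 ± 0.09 (SE; 95% interval -0.26 to 0.14; limma, adjusted p = 0.999), and by -0.11 without ELS control 1 (limma, adjusted p = 0.992). After ELS and defeat it differed by -0.09 ± 0.09 (-0.27 to 0.09; adjusted p = 1.00), and after defeat alone by -0.02 ± 0.09 (-0.20 to 0.16; adjusted p = 0.937). Among defeated mice ELS made a difference of -0.07 ± 0.08 (-0.23 to 0.09; adjusted p = 0.913), and among ELS mice defeat made one of -0.03 ± 0.09 (-0.21 to 0.15; adjusted p = 0.984). The interaction of ELS and defeat was -0.01 ± 0.12 (-0.26 to 0.24; adjusted p = 0.988). The intervals of the 5 group-to-group comparisons reach from a decrease of 17.1% to an increase of 11.4% on the RPKM + 1 scale. That scale understates the change of a gene at this level. In each male VTA comparison 0 of 14586 genes passed, a share of 0%, with 296 to 957 genes at an unadjusted p under 0.05.

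In female VTA Otx2 was 238 to 270.1 normalised reads with a median of 258 after ELS and STVS (n = 6). After ELS alone the 5 libraries had 258, 283, 273, 254 and 205. After STVS alone the 5 had 276, 290.2, 224, 315 and 290.5, and the 6 standard controls ran from 210.5 to 310.3 with a median of 259.6. Every pair of groups overlapped.

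The female differences lay on both sides of 0. After ELS alone Otx2 differed from standard controls by -0.04 ± 0.10 on the log2 scale (SE; 95% interval -0.24 to 0.17; limma, adjusted p = 0.954), and after STVS alone by 0.10 ± 0.10 (-0.10 to 0.30; adjusted p = 0.879). After both it differed by -0.01 ± 0.09 (-0.20 to 0.18; adjusted p = 0.964). Among STVS mice ELS made a difference of -0.11 ± 0.10 (-0.31 to 0.09; adjusted p = 0.927), among ELS mice STVS one of 0.02 ± 0.10 (-0.18 to 0.23; adjusted p = 1.00), and the interaction was -0.07 ± 0.14 (-0.36 to 0.21; adjusted p = 1.00). Without standard control 3 and standard STVS 3 the difference after STVS alone was 0.21 (limma, adjusted p = 0.878), that of ELS among STVS mice -0.19 (adjusted p = 1.00) and the interaction -0.19 (adjusted p = 0.999). With all libraries the intervals of the 5 group-to-group comparisons run from a decrease of 19.4% to an increase of 23.1%. In each comparison 0 of 14000 genes passed, a share of 0%, with 187 to 1625 at an unadjusted p under 0.05, and neither edgeR nor DESeq2 called a gene.

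**Figure D4:**
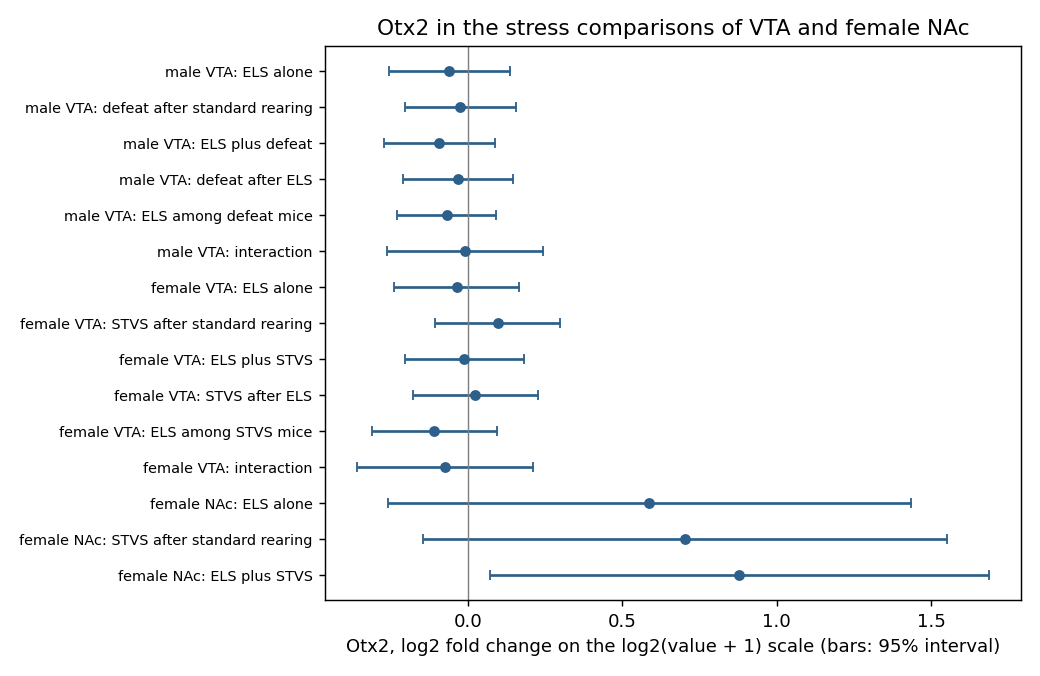
Log2 fold changes of Otx2 on the log2(value + 1) scale with 95% intervals, for the 12 VTA comparisons and the 3 of female NAc. All 12 VTA intervals cross 0 and the NAc estimates lie at 0.59, 0.70 and 0.88.

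The partners of Otx2 were also without a call. Slc6a3 differed by 0.70 ± 0.39 after STVS alone (SE; limma, adjusted p = 0.827) and by 0.59 ± 0.37 after ELS and STVS (adjusted p = 0.483) in females, and by 0.35 ± 0.31 after defeat alone in males (adjusted p = 0.726). All 9 dopamine neuron genes had log2 differences above 0 after STVS alone in females and after defeat alone in males, and 0 passed. The medians were 0.45 in female VTA and 0.39 in male VTA, beside 0.00328 and -0.02 over all genes. All 9 also lay above 0 in the other comparisons with standard controls. Their medians were 0.19 after ELS alone in each sex, 0.42 after ELS and STVS, and 0.18 after ELS and defeat. The 5 midbrain GABA neuron factors had a median of -0.03 with 2 above 0 after STVS alone in females, and of 0.37 with 5 above 0 after defeat alone in males. Among male ELS mice 0 of 9 dopamine neuron genes were above 0 after defeat (median -0.02), and among defeated males 0 of 9 were above 0 after ELS (median -0.22). Among female ELS mice all 9 were above 0 after STVS (median 0.22), and among STVS females 1 of 9 after ELS (median -0.06). The part of punch composition in these differences was not tested. All comparisons with standard controls share those control libraries within each sex. Otx1 differed by 0.17 ± 0.08 after defeat alone in males (adjusted p = 0.691) and by -0.11 ± 0.12 after STVS alone in females (adjusted p = 0.887). Gadd45b and Gadd45g, growth arrest genes tied to OTX2 taken up by parvalbumin cells of the cortex, differed in male VTA after ELS alone by -0.15 ± 0.11 and -0.13 ± 0.11 (adjusted p = 0.999 for both).

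In female NAc the stressed groups averaged above the controls without passing the test over all genes. After ELS and STVS the 6 libraries ran from 21.6 to 231 normalised reads with a median of 43.6, and without the Ttr-rich library they averaged 37.3 ± 10.2 (SD, n = 5). After ELS alone the 5 libraries had 25.9, 47.7, 42.2, 37.2 and 52.9, and after STVS alone 63.4, 48.8, 48.1, 43.8 and 23.7. The 6 standard controls ran from 14.6 to 39.5 with a median of 27.4. Thus 4 of 6 libraries of ELS with STVS, 3 of 5 of ELS alone and 4 of 5 of STVS alone lay above the highest control. These counts include 2 doubted libraries. The Ttr-rich ELS STVS 1 (231) would keep 13.3 reads at the hippocampal ratio, below the lowest control. Standard STVS 3 (48.1) had Xist below the limit. Every stressed group overlapped the controls.

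After ELS alone Otx2 differed from NAc controls by 0.59 ± 0.41 on the log2 scale (SE; 95% interval -0.26 to 1.43; limma, adjusted p = 0.582). After STVS alone the difference was 0.70 ± 0.41 (-0.14 to 1.55; adjusted p = 0.730). After both it was 0.88 ± 0.39 (0.07 to 1.69; adjusted p = 1.00), and 0.44 ± 0.26 without the Ttr-rich library (adjusted p = 0.999). Exact permutation tests of the 3 differences gave p = 0.0541, 0.0455 and 0.0714, each 0.524 after adjustment over the 22 group comparisons tested in this way. In each NAc comparison 0 of 14000 genes passed, a share of 0%, with 454 to 1569 at an unadjusted p under 0.05, and edgeR and DESeq2 called 0. The NAc counts were small, at 12 to 60 whole reads in the 21 libraries, where counting error is larger than in VTA. For 10 of the 22 libraries the adult condition in the labels repeats the sex, and their group was read from the title.

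In the hippocampus the stress differences moved with the Ttr-rich libraries. Otx2 differed from standard controls by -3.96 ± 1.84 on the log2 scale after defeat alone (SE; limma, adjusted p = 0.333), by -2.86 ± 1.84 after ELS alone (adjusted p = 0.860) and by -1.17 ± 1.84 after both (adjusted p = 1.00). Ttr differed after defeat alone by -5.42 ± 2.51 (adjusted p = 0.333), and 20 of 20 choroid plexus genes had differences below 0. Without the 6 libraries the Otx2 differences were 0.40, 0.81 and 0.71, with adjusted p of 0.999, 1.00 and 1.00. DESeq2 on whole reads called the decrease after defeat at -7.59 (adjusted p = 0.000836, 162 genes called), while edgeR gave -7.51 (adjusted p = 0.188). In each limma comparison 0 of 14000 genes passed, a share of 0%, with 477 to 2011 at an unadjusted p under 0.05.

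Among the 18 hippocampal libraries of low Ttr, Otx2 averaged 6.26 ± 6.48 normalised reads after ELS and defeat (SD, n = 4), 4.21 ± 2.67 after ELS alone (n = 5), 3.02 ± 2.01 after defeat alone (n = 6) and 3.35 ± 4.97 in standard controls (n = 3). The spread within groups was as large as the differences between them. Male hippocampus exceeded male PFC in standard controls by 4.81 ± 1.24 on the log2 scale (limma, adjusted p = 0.00186, with 52.1% of genes called), but by 0.45 ± 0.50 without the Ttr-rich libraries (adjusted p = 0.493), and the exact permutation p with all libraries was 0.0541. In PFC Otx2 was below the level needed for the fit. Exact permutation tests gave p between 0.152 and 0.981 in males and between 0.182 and 0.455 in females. In female PFC all 6 controls were at 0, as were 4 of 5 libraries after ELS alone. So were 4 of 5 after STVS alone and 3 of 6 after both. With so few libraries above 0 the female tests could not give p under 0.05, so they do not decide whether Otx2 differed. After defeat alone the male PFC difference was 0.78 on the log2 scale, and 0.15 without standard defeat 4, the library rich in Slc6a3.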

How the data were processed

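RNA of punches was poly-A selected, prepared with an unstranded kit and sequenced, per the labels' protocols. The values deposited for male VTA are RPKM, whose read depth is unknown. For the other sets the authors deposited a normalised signal per gene, in which each value was a whole number of reads divided by 1 factor per library. HISAT and HTSeq on build mm10 are named for that table in the submitters' processing notes. For male VTA the notes name TopHat2, HTSeq and Bowtie2 2.2.0 with builds mm9 and mm10, without roles. Whole reads were recovered from the normalised signal for 100% of values (tolerance 0.001), at 19185904 to 42746141 reads per library.

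Differences were fitted on log2(value + 1) by limma 3.58.1 under R 4.3.3, with a mean-variance trend and robust shrinkage, all groups of a region and sex in 1 fit, over genes with mean RPKM of at least 0.5 or the 14000 highest genes, with Benjamini-Hochberg adjustment at 0.05. Region fits used standard controls. Where Otx2 was below that filter, a two-sided exact permutation test replaced the fit. edgeR 4.0.16 and DESeq2 1.42.0 on whole reads, quantile normalisation, no filter, log2(value + 0.1), Ttr or Slc6a3 as covariates, a replicate block and left-out libraries were alternatives. The limma step was tested on simulated data. Correlations used 100000 permutations, or all of them for 6 libraries, and covered 7 relations. Limits for a count of 0 were 3 reads and, like intervals on reads, cover counting error only. The labels do not state separate litters, so p-values measure the spread between these libraries. Replicate numbers were not treated as a pairing: in no set did every same-number pair correlate above 0.1 (18 of 31 in female VTA). That rule cannot exclude a batch shared by number. A replicate block was fitted as an alternative, but whether such a batch was present was not tested. Same-number pairs had a mean r of 0.093 (VTA), 0.11 (NAc) and 0.13 (PFC) in females, beside -0.018, -0.023 and -0.026 for other pairs. In males the means were 0.0018 (VTA), 0.012 (HIP) and 0.051 (PFC), beside 0.0003, -0.0019 and -0.0081.

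In 270 comparisons of libraries of 1 group in the second table, the lowest chi-square per gene was 2.80. No library was therefore counted as a duplicate of another in its group. Pairs from different groups were not among these comparisons. Nor were the male VTA libraries, for which the highest r of a pair was 0.998. The 14 libraries called doubted exceeded 10000 Ttr, or had Xist above 200 in males, Ddx3y above 50 in females, or Xist under 0.5 of the set's median in females. Named genes were Otx2, its relatives and listed partners, and the 5 genes of highest r with Otx2 per set, of which 1 in female VTA is not reported here. The members and gene lists were chosen with earlier results of these data known. The 16 chromatin samples and male NAc were not analysed here.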

Additional observations from a re-analysis of the deposited data

Results flagged for a closer look

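In 7 of 23 groups tested, 1 library stood apart from its group in Otx2 by the gap to its nearest neighbour. The rule flags about 1 group in 20 by chance where values are continuous. That rate does not hold for groups at or near 0 reads. NAc ELS STVS 1 had 231 normalised reads beside 21.6 to 45.3 in its 5 companions, and hippocampal ELS control 4 had 84.5 beside 1.999 to 8.49. Both had Ttr above 10000. Male PFC standard defeat 4 had 28.6 normalised reads beside 0 to 5.79, together with 3853 of Slc6a3 and 1284 of Xist, which is above the limit set for males. Male VTA ELS control 1 had 2.46 RPKM beside 2.003 to 2.02 in its 3 companions, and without it the difference after ELS alone was -0.11 in place of -0.06. The other 3 rest on 1 or 2 reads each in groups otherwise at 0, where the rule flags any lone library above 0. These are female PFC ELS control 3 (2.07 normalised reads), female PFC standard STVS 5 (1.14) and male PFC ELS control 5 (1.87).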

How the results depend on the processing

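Of 249 alternatives to the 28 comparisons, 225 kept both direction and side of the threshold, 17 turned the sign, 5 lost a call and 2 gained one; of 336 fits that left out 1 library, 315 kept both and 21 turned the sign. In VTA every sign that turned lay close to 0 and no call was made. The replicate block gave 0.0115 for defeat alone and 0.00343 for defeat after ELS in male VTA, and changed no call. Same-number libraries of male VTA correlated with a mean r of 0.0018. Quantile normalisation gave 0.0144 for defeat alone, and Slc6a3 as a covariate gave 0.0371 for the male interaction and 0.00201 for ELS with STVS in females, where Ttr as a covariate gave 0.0127. Without the doubted libraries female VTA had 4.88e-05 for ELS alone and 0.0240 for ELS with STVS.

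Leaving out 1 library gave -0.067 to 0.028 (defeat after ELS), -0.044 to 0.052 (interaction) and -0.066 to 0.010 (defeat alone) in male VTA. In female VTA it gave -0.095 to 0.041 (ELS alone), -0.071 to 0.040 (ELS with STVS) and -0.052 to 0.064 (STVS after ELS), and in male PFC -0.18 to 0.22 (ELS with defeat). That last difference was -0.088 with Ttr as a covariate, -0.20 by edgeR and -0.22 by DESeq2. In the hippocampus, leaving out the libraries of Ttr above 10000, which are the doubted ones there, gave 0.81 for ELS alone, 0.40 for defeat alone and 0.71 for both. DESeq2 gave -7.59 for defeat alone and called it.

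The NAc difference of 0.70 after STVS alone passed the exact permutation test before adjustment only. Between regions, female VTA against female NAc was 3.30 with log2(value + 0.1) (limma, adjusted p = 0.0564) and 1.49 with Ttr as a covariate (adjusted p = 0.0560), over a range of adjusted p from 7.49e-12 to 0.0564. The lowest came from the female controls alone, a fit whose SE does not take in the hippocampal controls. The slope on Ttr was fitted over all standard controls, the hippocampal ones included. The cause of the other shifts was not tested. Hippocampus against PFC was 4.81 with an exact permutation p of 0.0541, 0.45 without the Ttr-rich libraries and 0.67 without the doubted ones. The fit of the female controls alone was chosen after seeing the data. In PFC the read depth limits Otx2 to whether a few reads were present, and in male VTA the depth is unknown.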
